A study of Homo sapiens with 6 samples.

Results

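Fibronectin, the fibrillins and the matricellular proteins were followed in HS578T, a cell line from a human breast carcinoma whose cells look mesenchymal. The genes were FN1, FBN1, FBN2, SPARC, TGFBI, TNC, POSTN, THBS1, THBS2 and VCAN, taken by the symbol in the array platform's annotation. All 10 were found, each with 1 probe set, among 17687 named genes and 21448 probe sets. Cells had been stably transfected either with the vector pcDNA 3 carrying EP300 cDNA or with empty pcDNA 3, and both kinds had been selected with G418 as pools of no fewer than 200 clones. EP300 encodes a lysine acetyltransferase that serves as a transcriptional co-activator. Each condition was represented by 3 cultures, described as independent, with 1 array per culture. Whether 1 pool or several gave rise to the 3 cultures is not stated, so the p-values measure the spread between cultures. G418 was in the medium of all 6 cultures, together with insulin and fetal calf serum, which itself holds fibronectin and other matrix proteins. EP300 itself was not analysed here, because no named probe set carries that symbol.

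Fibronectin is secreted as a dimer and is drawn into fibrils by integrins at the cell surface. Fibrillins form the microfibrils on which elastin is laid down and to which latent TGF-beta complexes are bound. Matricellular proteins are secreted into the matrix but act mainly on the contact between cells and matrix and on growth factor activity, and versican is a large proteoglycan that binds hyaluronan. Tumour cells of mesenchymal type and stromal fibroblasts are both known to produce many of these proteins.

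No gene of the group differed detectably between EP300-vector and empty-vector cultures. THBS1 was the member with the largest difference upward, 1.27-fold higher in EP300 cultures, and FN1 the one with the largest difference downward, 1.26-fold lower. Neither passed the test. In a simulation over all probe sets, given below with the processing, that test recovered few differences of 1 log2 unit. Limma called 0 of the 10 members at a Benjamini-Hochberg adjusted p of 0.05, as it did 0 of all 21448 probe sets (0%), and the adjusted p of the members lay between 0.82 and 0.999. At an unadjusted limma p below 0.05 it counted 0 of the 10 members, against 6.52% of all probe sets. Of the members 3 lay higher and 7 lower under the EP300 vector, where 50.2% of all probe sets lay higher and 49.7% lower. The members' median difference was -0.02 on the log2 scale, and that of all probe sets 0.00098. The largest interval bounds among the members were -0.84 and 0.81 on the log2 scale, so a change of 1 log2 unit lay outside the 95% interval of each member. A reservation on values near the ceiling is given below. Another holds for FBN2 and THBS2, whose levels near the lower quartile cannot be told from background, so a change in these transcripts could go unseen.

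The deposited values are on a scale taken as log2, and they end at a ceiling of 19.93. TGFBI was at the ceiling on 5 of 6 arrays and SPARC on 2 of 6, and no other member reached it. POSTN, at 19.56 to 19.66, lay just under it. The top of the scale was flattened below the ceiling as well. Of the 33 probe sets with a mean above 19, 26 (78.8%) had the same value, rounded to 3 decimals, on at least 3 arrays. Between 12 and 16 this held for 6 of 410 (1.46%). Between 16 and 18, where the means of THBS1 and FN1 lay, it held for 3 of 65 (4.62%), and between 18 and 19 for 2 of 20 (10%). The values of TGFBI, SPARC and POSTN are therefore given as measured, and a real difference in these transcripts could be larger than shown.

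The arrays were alike as a whole, with medians from 4.46 to 4.50 and lower quartiles from 3.47 to 3.50, and correlations over all probe sets of 0.978 to 0.981 within the groups and 0.977 to 0.981 between them. The table has no detection calls, so a level near or below the lower quartile cannot be told from background. The labelled cell type was checked against its markers. VIM, encoding vimentin, read 18.60 on every array, a tied value with an SD of 0 in both groups. It shows a high level but gives no measure of spread between cultures. Of 12 mesenchymal markers 9 lay above the array medians. Their mean per array ran from 10.23 to 10.28 in control and from 10.20 to 10.29 in EP300 cultures. Of the epithelial markers CDH1 read 2.08 to 4.02 and EPCAM 2.93 to 3.87, and the oestrogen receptor gene ESR1 read 4.34 to 5.46. Of the 12 epithelial markers as a whole, 5 lay above the array medians, ESR1 among them by its mean level. Below the lower quartile lay 3, and the rest lay between. The level of 12 epithelial markers, as a mean per array, ran from 4.65 to 4.76 in control and from 4.69 to 4.73 in EP300 cultures. Of 5 measured leukocyte markers and 6 endothelial markers, 1 each lay above the array medians. The mean per array of the leukocyte markers ran from 3.75 to 4.11 in control and from 3.87 to 4.02 in EP300 cultures, and that of the endothelial markers from 3.43 to 3.45 and from 3.31 to 3.61.

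The groups did not overlap for 3 of 10 members, FN1, SPARC and THBS1, against 12.2% of all probe sets, and after quantile normalization for 0 of 10. The 250 bases before their transcription starts are shown because these are the members whose deposited values did not overlap. They were read from RefSeq on GRCh38.p14, where all 10 members had an entry, and each is written 5′ to 3′ along the gene's strand. Capitals mark matches, on either strand, to 5 motifs. These were TGACGTCA (the cyclic AMP response element, to which CREB binds, a factor known to recruit EP300), the AP-1 letters TGANTCA, the box CCAAT to which NF-Y binds, the Sp1 letters GGGCGG of the GC box, and TATAA for the TATA box.
FN1 (chr2:215436069-215436318, minus strand): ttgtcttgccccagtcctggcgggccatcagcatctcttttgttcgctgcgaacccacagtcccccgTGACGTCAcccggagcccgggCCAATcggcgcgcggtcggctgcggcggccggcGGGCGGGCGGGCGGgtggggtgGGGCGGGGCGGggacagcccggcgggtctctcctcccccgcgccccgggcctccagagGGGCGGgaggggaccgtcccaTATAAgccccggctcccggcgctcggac
SPARC (chr5:151686916-151687165, minus strand): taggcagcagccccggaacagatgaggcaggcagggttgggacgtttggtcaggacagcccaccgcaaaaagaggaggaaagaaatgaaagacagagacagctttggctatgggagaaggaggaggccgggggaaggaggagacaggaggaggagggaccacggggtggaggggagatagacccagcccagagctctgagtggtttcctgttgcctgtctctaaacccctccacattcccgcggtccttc
THBS1 (chr15:39580829-39581078, plus strand): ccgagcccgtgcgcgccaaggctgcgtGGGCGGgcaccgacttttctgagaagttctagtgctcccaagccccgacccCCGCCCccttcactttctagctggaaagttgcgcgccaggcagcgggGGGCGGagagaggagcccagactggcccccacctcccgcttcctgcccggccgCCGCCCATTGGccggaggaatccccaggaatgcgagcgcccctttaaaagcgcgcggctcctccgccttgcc
The FN1 sequence held TGACGTCA with its first base at -183 from the start, the NF-Y letters at -162, the TATA letters at -28 and 6 GC boxes between -129 and -49, some of which overlap each other. The SPARC sequence held none of the 5 motifs. The THBS1 sequence held GC boxes at -223, -172, -125 and -72, and the NF-Y letters on the opposite strand at -66, directly beside the last of them.

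TGACGTCA was present in 1 of the 10 members, FN1, and in 1.63% of 34943 promoters of the same length. AP-1 letters were present in POSTN, 1 of 10, against 6.59% of promoters. TATAA was present in 5 of 10 (FN1, TNC, POSTN, THBS2 and VCAN), with a match between -29 and -26 in each, against 18.97% of promoters anywhere in the window. The NF-Y letters were found in 3 of 10 (FN1, FBN2 and THBS1) against 32.0%, and the GC box in 6 of 10 against 42.5%. Base composition differed widely among the members. G and C made up 76.4% of the FN1 window and 36.4% of that of POSTN, with a median of 58% over all promoters. These matches are a description of the sequence, and none was measured for binding. By chromosome, VCAN, FBN2, TGFBI and SPARC lie on 5, and THBS1 and FBN1 on 15.

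FN1 encodes fibronectin, the scaffold on which other matrix proteins assemble. It read 17.77, 17.77 and 18.25 in control cultures 1, 2 and 3, and 17.41, 17.62 and 17.76 in EP300 cultures 1, 2 and 3. All EP300 values lay below all control values, but the nearest pair, control 2 and EP300 3, differed by 0.00088, and control 3 stood apart above the other controls. The means were 17.93 ± 0.28 and 17.60 ± 0.18 (SD, n = 3 each), a log2 difference of -0.33 ± 0.23 SE with a 95% interval from -0.84 to 0.18 (limma adjusted p = 0.856, and 0.714 to 0.929 over the alternative settings). Without control replicate 3 the difference was -0.17.

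THBS1 encodes thrombospondin-1, which binds CD36 and CD47 and can activate latent TGF-beta. Its probe set read 16.34, 16.69 and 16.45 in control cultures and 16.86, 16.77 and 16.90 in EP300 cultures. Every EP300 culture exceeded every control culture, with a gap of 0.08 between control 2 and EP300 2. The means were 16.49 ± 0.18 and 16.84 ± 0.07 (SD, n = 3 each), and the difference was 0.35 ± 0.21 SE, with a 95% interval from -0.11 to 0.81 (limma adjusted p = 0.82, and 0.638 to 0.916 over the alternative settings). It ran from 0.27 without control replicate 1 to 0.45 without control replicate 2.

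SPARC encodes a collagen-binding matricellular glycoprotein that is abundant in fibroblasts and bone. It read 19.91 in control 1 and was at the ceiling of 19.93 in controls 2 and 3, and it read 19.74, 19.71 and 19.85 in the EP300 cultures. All EP300 values lay below all control values. Because 2 of the 3 control values are capped, the control mean of 19.92 ± 0.01 is a lower bound, against 19.76 ± 0.07 in EP300 cultures (SD, n = 3 each). The log2 difference was -0.16 ± 0.20 SE with a 95% interval from -0.60 to 0.28 (limma adjusted p = 0.918). With capped values set to missing it was -0.14, on 1 control array.

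By direction, the groups were separated in 1 of 10 members as higher, against 6.3%, and 2 of 10 lower, against 5.91%. The exact two-sided permutation p of each of these 3 genes was 0.1, the smallest that 3 arrays against 3 allow. The separation depended on the scaling. After quantile normalization, when 12.04% of all probe sets were separated and 0 of the 10 members, FN1 ran from 17.76 to 18.16 in control and from 17.56 to 17.83 in EP300 cultures, and THBS1 from 16.40 to 16.73 and from 16.71 to 16.86. SPARC then met its control range at 19.89. With median centring THBS1 and SPARC were separated and FN1 was not. The differences kept their direction under both scalings, at -0.22 and -0.32 for FN1, 0.26 and 0.35 for THBS1 and -0.10 and -0.16 for SPARC.

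**Figure D1:**
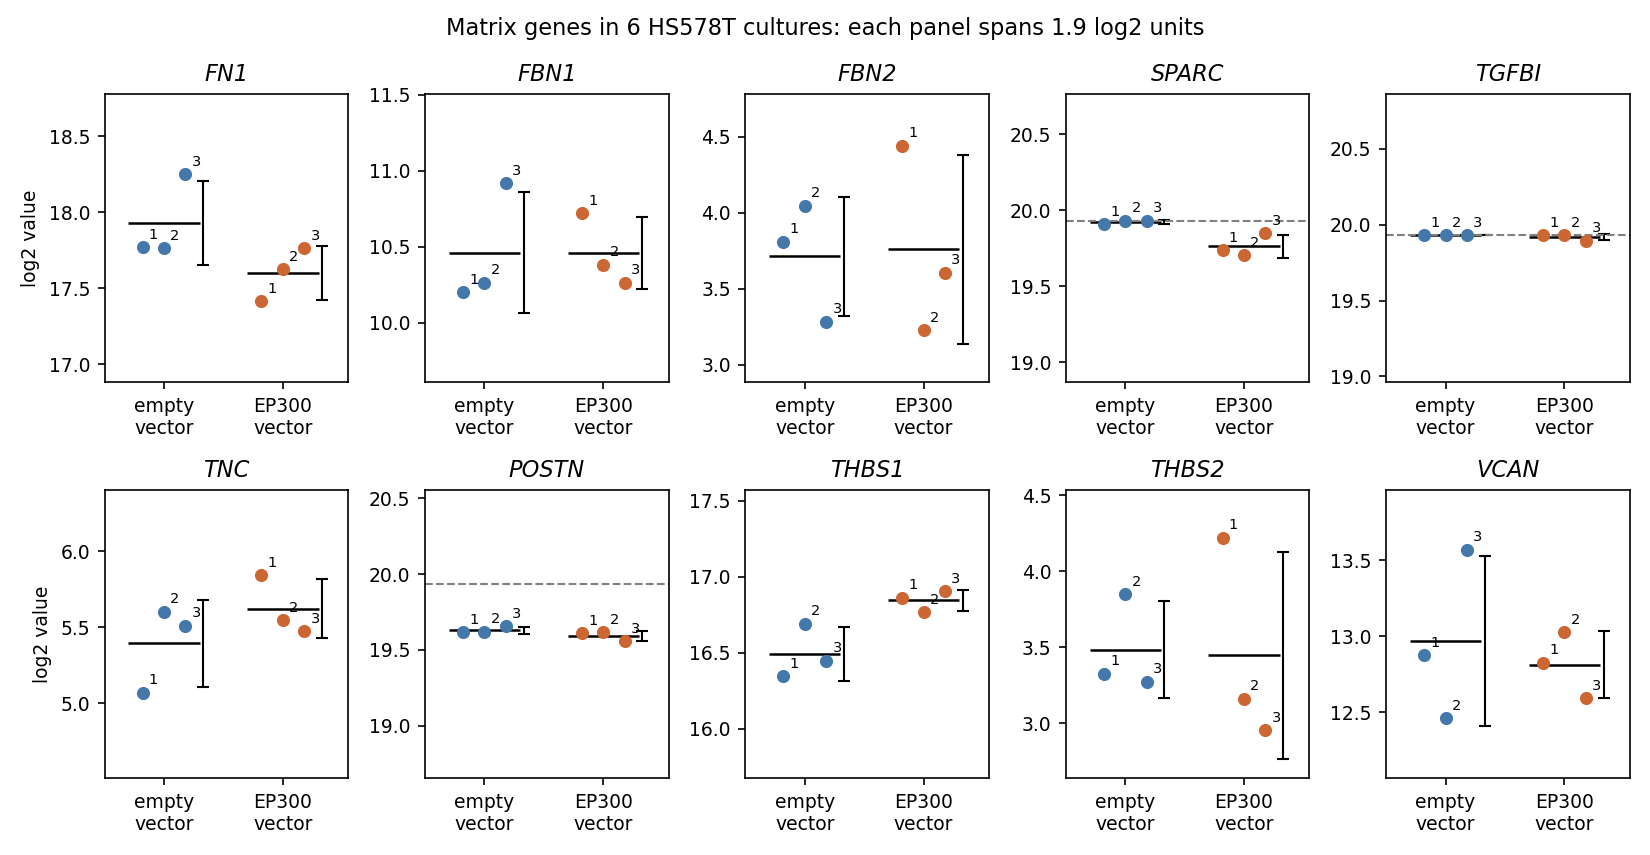
The log2 value of each of the 10 genes (y axis, the same span in every panel) in 3 empty-vector (blue) and 3 EP300-vector (orange) cultures, with replicate numbers beside the points, the group mean as a line and the SD as a bar; the dashed line is the ceiling of 19.93. FN1, SPARC and THBS1 are the panels without overlap, and TGFBI and POSTN are flat near the ceiling.

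THBS2 encodes thrombospondin-2, the relative of THBS1 and likewise an inhibitor of angiogenesis. It read 3.33, 3.85 and 3.27 in control and 4.22, 3.16 and 2.95 in EP300 cultures. EP300 replicate 1 was the highest of the 6 arrays and EP300 replicate 3 the lowest, so the groups overlapped fully. Its group means of 3.48 ± 0.32 and 3.45 ± 0.68 (SD, n = 3 each) lay near the lower quartile of the arrays, so no fold is given, and the difference was -0.04 ± 0.34 SE (limma adjusted p = 0.991). It was 0.15 without control replicate 2, 0.10 without EP300 replicate 2 and 0.21 without EP300 replicate 3.

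TNC encodes tenascin-C, a hexameric protein of wound and tumour stroma. It read 5.07, 5.60 and 5.51 in control and 5.84, 5.55 and 5.47 in EP300 cultures, above the array medians throughout. The low value of control 1 and the high value of EP300 1 stood apart, and the other 4 arrays lay between 5.47 and 5.60. The difference was 0.23 ± 0.23 SE, 1.17-fold, with a 95% interval from -0.29 to 0.75 (limma adjusted p = 0.904). It was 0.07 without control replicate 1 and 0.12 without EP300 replicate 1.

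POSTN encodes periostin, which binds integrins and supports collagen cross-linking. It read 19.62, 19.62 and 19.66 in control and 19.61, 19.62 and 19.56 in EP300 cultures, a difference of -0.04 ± 0.19 SE on the flattened part of the scale (limma adjusted p = 0.987), which changed sign to 0.0066 with quantile normalization. TGFBI encodes a secreted protein that is induced by TGF-beta and binds collagen and integrins. It was at the ceiling of 19.93 on all control arrays and on EP300 arrays 1 and 2, and read 19.89 on EP300 array 3. Its values give no measure of a difference, since no control array lay below the ceiling.

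FBN1 and FBN2 encode the fibrillins of microfibrils, fibrillin-2 being mainly a protein of development. FBN1 read 10.20, 10.26 and 10.92 in control and 10.72, 10.38 and 10.26 in EP300 cultures. The means of 10.46 ± 0.40 and 10.46 ± 0.24 (SD, n = 3 each) were nearly equal, and they differed by -0.0038, with a 95% interval from -0.58 to 0.58 (limma adjusted p = 0.999). Its direction was not stable. It was 0.22 without control replicate 3, 0.03 without EP300 replicate 2, 0.09 without EP300 replicate 3 and 0.00039 with median centring.

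FBN2 read 3.81, 4.05 and 3.28 in control and 4.44, 3.23 and 3.60 in EP300 cultures. Both groups held values on either side of the lower quartile of the arrays, and the highest and the lowest of the 6 values were both in EP300 cultures. The difference was 0.05 ± 0.33 SE (limma adjusted p = 0.989), and it was -0.17 without control replicate 3 and -0.30 without EP300 replicate 1.

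VCAN encodes versican, a large chondroitin sulfate proteoglycan. It read 12.88, 12.46 and 13.57 in control and 12.83, 13.02 and 12.59 in EP300 cultures. The controls spanned both the highest and the lowest value, with all EP300 values between them. The difference was -0.16 ± 0.30 SE with a 95% interval from -0.82 to 0.51 (limma adjusted p = 0.948), and it was 0.14 without control replicate 3.

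**Figure D2:**
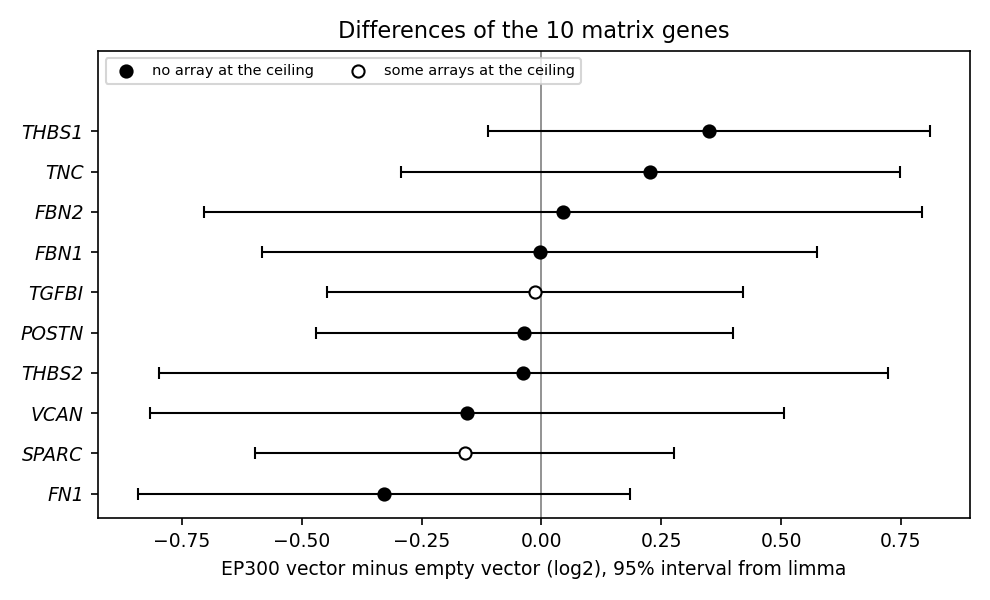
The log2 difference of each gene, EP300 vector minus empty vector (x axis), with its 95% interval from limma as a bar; open points are genes with some arrays at the ceiling. In this fit, without a variance trend, every interval spans 0, and the estimates run from -0.33 for FN1 to 0.35 for THBS1.

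Among the 8 members with no capped value, variation between arrays was led by single cultures of both groups. Control replicate 3 was the highest array for 4 of them (FN1, FBN1, POSTN and VCAN), and EP300 replicate 1 for 3 (FBN2, TNC and THBS2). Control replicate 3 stood 0.49 above the mean over arrays for FN1, 0.46 for FBN1 and 0.68 for VCAN, and 0.45 below it for FBN2. EP300 replicate 1 stood 0.71 above the mean for FBN2 and 0.76 for THBS2. THBS1 was highest on EP300 replicate 3.

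**Figure D3:**
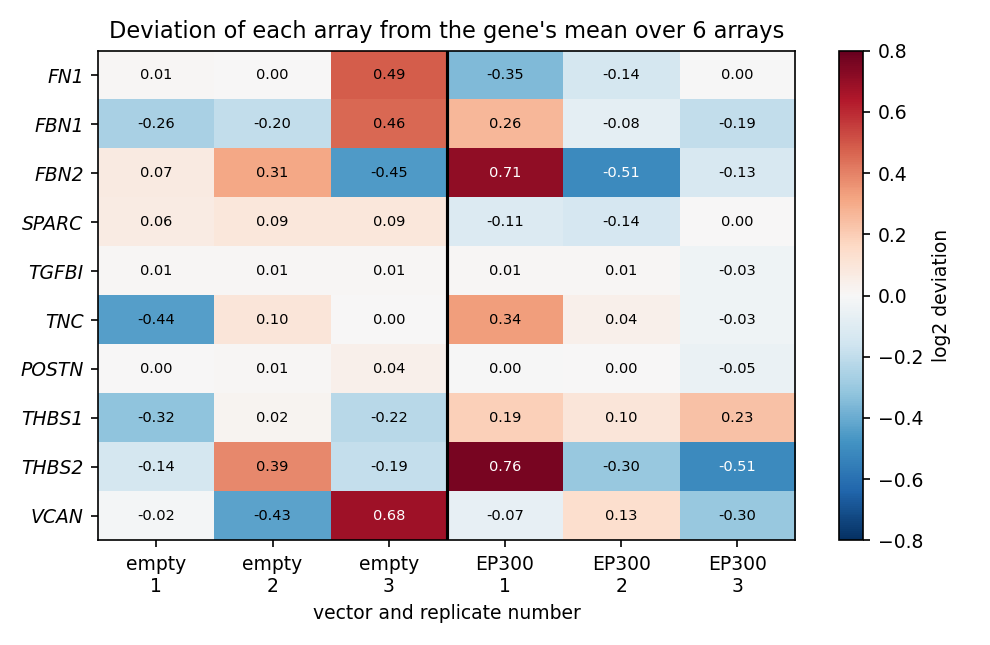
Deviation of each array (columns, 3 empty-vector and 3 EP300-vector cultures) from each gene's mean over the 6 arrays (rows), in log2 units, red above and blue below the mean. The deepest red is in EP300 culture 1 for FBN2 and THBS2 and in control culture 3 for VCAN.

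Likeness of pattern was measured as the root mean square distance between 2 genes' deviations over the 6 arrays. The 3 closest pairs were TGFBI with POSTN (0.018), SPARC with POSTN (0.088) and SPARC with TGFBI (0.093), all of them genes at or near the ceiling, whose values could hardly vary. The next pair, named after its value was seen, was TNC with THBS1 (0.17), both lowest on control replicate 1. FBN2 was farthest from the others, with a mean distance of 0.46, followed by THBS2 at 0.44. The deviations were not scaled, so the distance also grows with the spread of a gene. FBN2 and THBS2 had the largest pooled SD of the members, 0.52 and 0.53, at levels near the lower quartile, and lay 0.23 from each other.

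The spread between replicate cultures differed widely among the members. The pooled SD within groups was 0.53 for THBS2 and 0.52 for FBN2, at the bottom of the scale, and 0.02 for TGFBI and 0.03 for POSTN, at its top. Between these ends it did not follow the level from gene to gene, with 0.24 for TNC, 0.33 for FBN1 and 0.14 for THBS1. For FN1 it was 0.23 and for VCAN 0.42, above the median of 0.12 and 0.21 of all probe sets at their levels (17 to 18 and 12 to 13). Limma's constant prior variance gave SPARC, whose own pooled SD was 0.05, a standard error of 0.20. With a variance trend and robust estimation, which lets the prior follow the level, the unadjusted limma p was 0.0122 for THBS1, 0.0373 for FN1 and 0.0716 for SPARC. Counted at an unadjusted p below 0.05, 2 of 10 members passed in that fit, against 6.78% of all probe sets, and 0 of 10 at an adjusted p below 0.05, against 0.0186%. The limma adjusted p of THBS1 was then 0.638 and that of FN1 0.714. Level and flattening move together there, and the part of the flattening in these p-values was not tested.

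**Figure D4:**
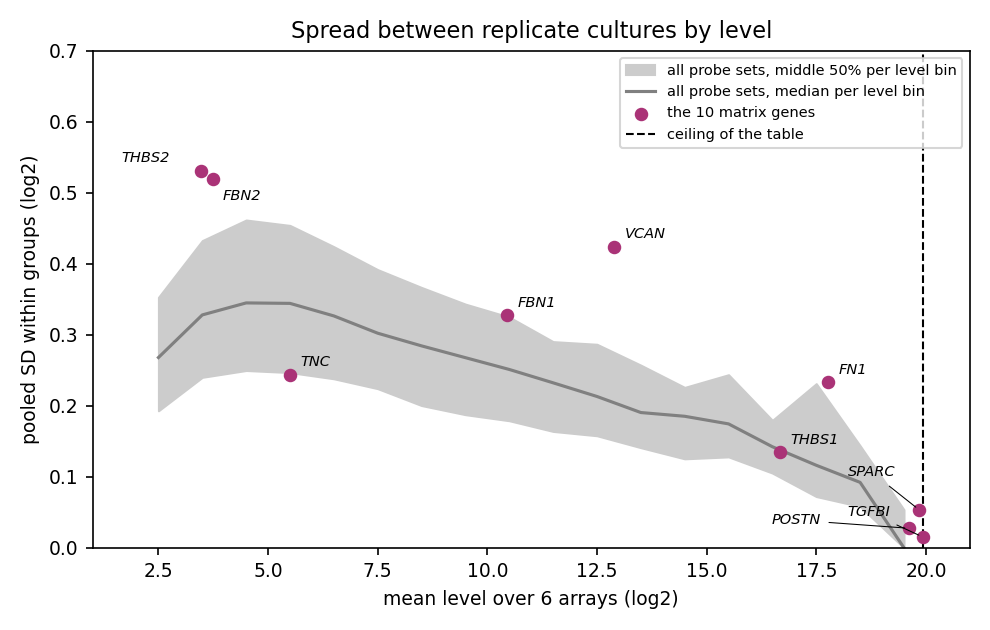
Pooled SD within groups (y axis, log2) against the mean level over 6 arrays (x axis, log2) for the 10 genes (points), with the median and middle 50% of all probe sets per level bin of 1 log2 unit (grey line and band). The median spread of all probe sets falls towards the ceiling (dashed), where SPARC, TGFBI and POSTN lie, and FN1, FBN1, VCAN, FBN2 and THBS2 lie at or above the upper edge of the grey band.

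Related genes were counted in 5 lists of receptors, partners and relatives. Of 101 listed genes 96 were measured, 46 higher and 50 lower in EP300 cultures, and limma called 0 at an adjusted p of 0.05, with 4 higher and 2 lower at an unadjusted p below 0.05 (backgrounds of 3.45% and 3.07%). No list therefore held a called gene, and the genes below are those with the smallest p in each list. The groups did not overlap for 9 of the 96 genes, against 12.2% of all probe sets. By list this held for 3 of 15 fibronectin receptors and assembly genes, 2 of 23 microfibril genes and 2 of 21 other matricellular genes. It held for 2 of 16 receptors of matricellular proteins and 0 of 21 hyaluronan and proteoglycan genes. Genes at an unadjusted limma p below 0.05 numbered, in the same order, 2 higher, 0, 1 higher and 1 lower, 1 lower, and 1 higher.

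Of 15 fibronectin receptors and assembly genes 7 lay higher and 8 lower, with a median of -0.03, which was 0.06 without control replicate 1. An unadjusted limma p below 0.05 was found for 2 of the 15, both higher, against 3.45% of all probe sets. ITGA8, encoding an integrin subunit that binds fibronectin with the beta-1 subunit, read 3.17, 4.03 and 3.51 in control and 4.50, 4.40 and 4.93 in EP300 cultures. The EP300 values were all above the control values, a difference of 1.04 ± 0.27 SE (limma adjusted p = 0.735), from a control level near the lower quartile. ITGA9, encoding a tenascin-C-binding integrin subunit, differed by 0.53 ± 0.23 SE at levels near or below the lower quartile. ITGAV, encoding the alpha-V subunit shared by several fibronectin and periostin receptors, read 8.91, 8.62 and 9.24 in control and 9.38, 9.59 and 9.32 in EP300 cultures, 1.42-fold higher (0.51 ± 0.23 SE, limma adjusted p = 0.77).

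Of 23 microfibril and elastic fibre genes 13 lay higher and 10 lower, with a median of 0.02, and 0 had an unadjusted limma p below 0.05. That median was -0.02 without EP300 replicate 2 and -0.06 without control replicate 2, and 0.12 without control replicate 3 and 0.14 among probe sets above the median level. The smallest p were those of MFAP3 (-0.44 ± 0.26 SE), EMILIN1, encoding a glycoprotein of the elastin and microfibril interface (0.36 ± 0.21), and FBLN5, encoding fibulin-5 of elastic fibre assembly (0.44 ± 0.31, with both group means below the lower quartile). FBLN5 rested on EP300 replicate 3, and the difference was 0.08 without it.

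Of 21 other matricellular genes 11 lay higher and 10 lower, with a median of 0.02 that was negative without any 1 of the 6 arrays, from -0.08 to -0.0064. SMOC2, a modular relative of SPARC, read 3.27, 3.02 and 3.21 in control, below the lower quartile, and 3.80, 3.84 and 4.01 in EP300 cultures (0.72 ± 0.20 SE, limma adjusted p = 0.735). CCN2, encoding connective tissue growth factor, read 13.33, 13.19 and 12.90 in control and 12.48, 12.67 and 12.77 in EP300 cultures. That is 1.42-fold lower (-0.50 ± 0.22 SE, 95% interval -0.99 to -0.02, limma adjusted p = 0.765), with no overlap and with levels far from both ends of the scale. The CCN2 difference ran from -0.62 without control replicate 3 to -0.41 without control replicate 1, where its interval, -0.96 to 0.15, spanned 0. That interval also spanned 0 without control replicate 2, without any 1 EP300 replicate, with median centring and with the replicate block. It excluded 0 under the other alternatives. CCN4, of the same family, differed by -0.44 ± 0.24 SE, and by -0.26 without control replicate 1.

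Of 16 receptors of matricellular proteins 12 lay lower and 4 higher, with a median of -0.14, which stayed between -0.18 and -0.11 over the alternative settings, and 1 had an unadjusted limma p below 0.05. This was TLR2, an innate immune receptor that versican can engage, at -0.60 ± 0.26 SE (limma adjusted p = 0.762). Without EP300 replicate 2 it was -0.37, with an unadjusted limma p of 0.163. STAB2, a scavenger receptor, differed by -0.44 ± 0.24 and ITGA6, an integrin subunit better known for laminin, by -0.63 ± 0.39. ITGA6 was at -0.23 without control replicate 3 and -0.98 without EP300 replicate 3, and STAB2 at -0.26 without control replicate 1. STAB2 lay near the lower quartile in both groups.

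Of 21 genes of hyaluronan and the large chondroitin sulfate proteoglycans 11 lay higher and 10 lower, with a median of 0.03, which was -0.06 without control replicate 2 and -0.04 among probe sets above the median level. HAS3, a hyaluronan synthase gene, read 2.45 ± 0.35 in control and 3.22 ± 0.68 in EP300 cultures (SD, n = 3 each), both below the lower quartile (0.77 ± 0.34 SE, limma adjusted p = 0.765). Its difference was 0.40 without EP300 replicate 2 and 1.06 without EP300 replicate 1. HAPLN1, the link protein that ties proteoglycans to hyaluronan, differed by 0.38 ± 0.29 SE, and by 0.094 without control replicate 1 and 0.64 without control replicate 2. CHPF, a chondroitin polymerising factor, differed by -0.42 ± 0.32, and by -0.22 without control replicate 1, -0.23 without EP300 replicate 1, -0.65 without EP300 replicate 2 and -0.72 without control replicate 3.

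**Figure D5:**
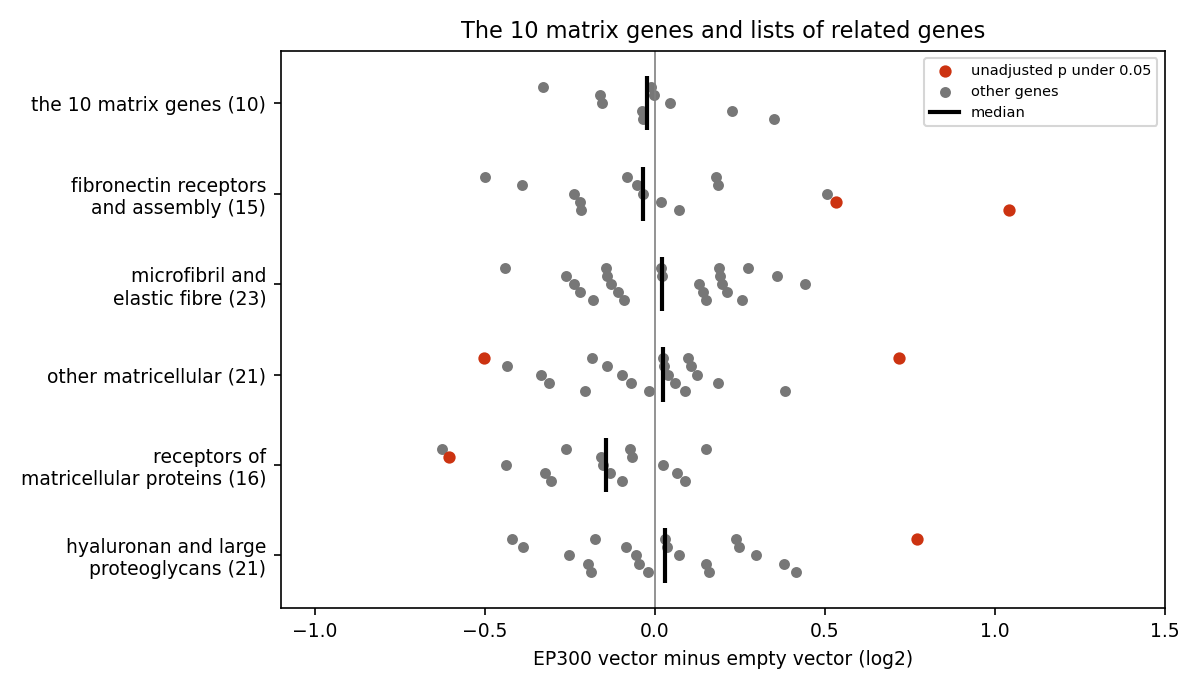
Log2 difference, EP300 vector minus empty vector (x axis), of the 10 matrix genes and of the measured genes of 5 related lists (rows, with the number of genes), each point 1 gene, the bar the median, and red an unadjusted limma p below 0.05. The medians lie between -0.14 and 0.03, and 6 related genes and 0 of the 10 are red.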

How the data were processed

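Total RNA (Qiagen RNeasy) from 6 HS578T cultures was biotin-labelled by the Affymetrix WT PLUS protocol, per the labels, and each sample was measured on 1 array. In the deposited table, each probe set has 1 value for every array. These values were taken as log2, inferred from their range of 1.79 to 19.93, since the authors' labels do not state the scale. The authors used Partek 6.6, per the submitters' processing notes. How background was corrected and values normalized and summarised is not given in the sources used here. A ceiling caps high values, and background is not marked. The small number of arrays limits precision.

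Names came from the annotation of the array platform, which gave 1 symbol for 17709, several for 0 and none for 3739. All 17709 matched a RefSeq table of GRCh38.p14, with 0 symbols changed. The contrast, EP300 minus control, was fitted in R 4.3.3 with limma 3.58.1 (lmFit, eBayes) over all 21448 probe sets, with no filter, covariate or block, and p-values were adjusted over all of them. The fit was tested on simulated data without a ceiling and with a spread that did not depend on the level. The shares recovered are therefore averages over probe sets and not those of FN1 or THBS1. Of the probe sets given a log2 change of 1 there, 9.55% were recovered at an adjusted p of 0.05. At a log2 change of 2 it was 89.6%, and at 3 it was 99.4%. Over all sizes of change together, 4.86% of the calls were false. A count of 0 calls therefore says little about differences of 1 log2 unit or less. Errors of groups are SD, and errors of differences are moderated standard errors. Where a gene had several probe sets, the one with the highest mean was used.

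The members, the lists, the markers and the rule for names were chosen with earlier results of these data known. The rule names all 10 members, the 3 genes of each list with the smallest p, and 4 markers. Alternatives were quantile normalization, median centring, a filter that keeps probe sets whose level exceeds the median, the use of 1 probe set for each gene, a robust fit with a variance trend, ceiling values set to missing, each array left out, and a replicate block. A planned description of protein features was not made, since protein sequences were not used here. Promoter motifs were searched after the values were seen, with Python 3.11.15.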

Additional observations from a re-analysis of the deposited data

How the results depend on the processing

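The count of called probe sets was 0 under each alternative except a variance trend with robust estimation, where it was 4, none of them among the 10 genes. Members at an unadjusted limma p below 0.05 then numbered 2 in place of 0. No member was called under any alternative. The median difference of the members, -0.02, ran from -0.14 to 0.046 without 1 array. FN1, SPARC, THBS1 and TNC kept their direction under every alternative run. POSTN turned to 0.0066 with quantile normalization and FBN1 to 0.00039 with median centring. Without 1 array FBN1 ran from -0.14 to 0.22, FBN2 from -0.30 to 0.31, THBS2 from -0.43 to 0.21 and VCAN from -0.41 to 0.14, while TGFBI was at 0 without EP300 replicate 3. The cause of these changes was not tested. FBN2 and THBS2 fell under the filter on level, and TGFBI had no value with ceiling values missing. Same-numbered cultures did not deviate together (r from -0.0089 to -0.0015 over all probe sets), so the numbers were not taken as pairs. With the replicate block 0 probe sets were called and the members' median stayed at -0.02.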
